A study of Mus musculus with 6 samples.

Results

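The stretch of mouse chromosome 16 between 55 Mb and 85 Mb (build mm10) held 826 of the 214414 ATAC-seq peaks in the authors' deposited table. Every peak whose midpoint lay in that window was taken, and the window itself had been selected on the deposited fold changes of the same comparison, which turn there from higher to lower. Their fold changes are therefore described and not tested. ATAC-seq, in which a transposase inserts adapters into open DNA, was run on organoids, which are tumour cells grown as a 3-dimensional culture, of mouse non-small cell lung cancer. There were 3 libraries labelled as sensitive to immunotherapy and 3 labelled as resistant, and their comparison asks how open chromatin differs between such organoids. Both groups are labelled only as non-small cell lung cancer cells. Strain, tumour genotype, age of the animals, the treatment given and whether the libraries were separate cultures are not in the labels, so the standard errors may hold technical spread alone. A positive log2 fold change is read here as more signal in the resistant group, a reading that depends only on how the table is titled. Counts of this kind do not separate the openness of a DNA copy from the number of copies per nucleus, and these cannot be told apart here.

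An adjusted p-value was given in the authors' deposited table for 291 of the 826 peaks, called tested peaks below. The other 535 had low counts, with a mean of at most 14.7 normalized reads over the libraries, and are called weak peaks. The share of tested peaks was 35.2% in the segment and 47.7% in the whole table. A peak is called higher or lower where its adjusted p is under 0.05, the threshold used throughout. By the authors' deposited table, 57 of the segment's peaks were called higher and 76 lower, where 5.02% of all 102173 tested peaks were called higher and 7.34% lower. At an adjusted p under 0.01 they were 36 and 61, beside 2.93% and 4.66% of all tested peaks, and at mean counts of 50 and more they were 15 and 14, beside 7.07% and 21.6% of all such peaks. The comparison that chose the segment is the one that gave these calls, so nothing is read from the shares. The median standard error of a tested peak was 0.36 on the log2 scale in the segment and 0.35 in the whole table. Over all tested peaks of the table the median log2 fold change was -0.07. Promoter peaks of 6 of 7 epithelial lung cancer markers were listed in the authors' deposited table, with mean counts of 87.2 to 785 and Krt8, Cdh1 and Krt18 near the top, while Sftpc had none. Mean counts at promoters were 7.23 to 16.4 for 3 of 4 immune markers (Ptprc was not listed), 16 to 29.9 for 3 endothelial markers and 15.6 to 108 for 5 fibroblast markers, beside a median of 56.8 over all genes. Levels of these markers per library were not analysed here.

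In ATAC-seq a promoter or enhancer that is bound by factors and free of nucleosomes is cut often, whereas closed chromatin gives few reads. Such elements are short compared with the distances between genes, and neighbouring genes may share an enhancer. Gene-dense chromatin holds many constitutive, CpG-rich promoters, while long gene-poor stretches with large neuronal adhesion and guidance genes are mostly closed in epithelial cells.

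Promoter sequences are shown for 5 genes at which the profile turns or which carry several of its lowest peaks: Tmem45a, whose promoter peak had the largest called gain, Tomm70a and Crybg3, which stand on the far side of a step, and Nrip1 and Btg3 in the lowest part. Each is the 250 bases before the gene's start in RefSeq (GRCm38.p6, the assembly of mm10), written 5′ to 3′ on the gene's strand. All of them lie inside a tested peak of the same gene. Their positions are chr16:56886164-56886413 on the minus strand for Tmem45a, chr16:57121464-57121713 on the plus strand for Tomm70a, chr16:59601048-59601297 on the minus strand for Crybg3, chr16:76373828-76374077 on the minus strand for Nrip1 and chr16:78377182-78377431 on the minus strand for Btg3. Capitals mark every match, on either strand, to the GC box GGGCGG, the CCAAT box CCAAT, the TATA box TATAAA or the AP-1 site TGANTCA.
Tmem45a promoter: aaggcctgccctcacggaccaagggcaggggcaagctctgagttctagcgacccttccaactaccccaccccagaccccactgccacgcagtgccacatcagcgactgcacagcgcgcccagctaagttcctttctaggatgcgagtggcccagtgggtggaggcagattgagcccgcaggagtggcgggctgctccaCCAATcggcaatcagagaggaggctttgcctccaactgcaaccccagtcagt
Tomm70a promoter: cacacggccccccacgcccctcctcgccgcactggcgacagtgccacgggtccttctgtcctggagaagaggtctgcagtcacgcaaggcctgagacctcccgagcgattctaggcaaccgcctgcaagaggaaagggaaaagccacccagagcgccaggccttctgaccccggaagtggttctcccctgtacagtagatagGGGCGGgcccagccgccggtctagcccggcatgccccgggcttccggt
Crybg3 promoter: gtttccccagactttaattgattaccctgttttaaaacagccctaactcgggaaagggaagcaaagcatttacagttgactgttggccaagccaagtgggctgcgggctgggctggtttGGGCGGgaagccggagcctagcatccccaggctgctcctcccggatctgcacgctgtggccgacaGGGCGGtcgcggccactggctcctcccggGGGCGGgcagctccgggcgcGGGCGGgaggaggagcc
Nrip1 promoter: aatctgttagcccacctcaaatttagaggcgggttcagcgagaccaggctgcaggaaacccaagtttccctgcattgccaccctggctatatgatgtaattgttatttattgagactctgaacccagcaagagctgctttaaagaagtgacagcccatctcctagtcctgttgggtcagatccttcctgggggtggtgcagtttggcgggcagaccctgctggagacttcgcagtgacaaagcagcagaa
Btg3 promoter: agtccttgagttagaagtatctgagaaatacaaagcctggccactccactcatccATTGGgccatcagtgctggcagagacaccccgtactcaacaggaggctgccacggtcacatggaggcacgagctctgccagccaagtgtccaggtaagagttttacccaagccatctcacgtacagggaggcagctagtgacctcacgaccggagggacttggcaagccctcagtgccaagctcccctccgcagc

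The Crybg3 promoter held 4 GC boxes and 16 CpG dinucleotides, and that of Tomm70a held 1 GC box and 18 CpG. Tmem45a and Btg3 each had 1 CCAAT match, on opposite strands, with 10 and 7 CpG. Nrip1 had none of the 4 motifs and 4 CpG. No match overlapped another motif in these windows. A GC box was present in 32.7% of all 32851 promoter windows of this length in the RefSeq table, a CCAAT match in 33.8%, TATAAA in 12.4% and the AP-1 letters in 6.75%. These matches are letters in a window and not evidence of a bound factor.

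MicroRNAs repress target messages through their seed, bases 2 to 8. The lowest part of the segment holds the cluster of miR-99a, let-7c and miR-125b and, further on, miR-155, a microRNA known from immune and inflammatory cells. Their mature 5p strands from RefSeq (GRCm38.p6, all on the plus strand) follow with the seed in capitals.
miR-99a-5p: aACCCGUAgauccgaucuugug
let-7c-5p: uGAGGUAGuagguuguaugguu
miR-125b-5p: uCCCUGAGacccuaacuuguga
miR-155-5p: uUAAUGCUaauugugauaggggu

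Genomic positions are chr16:77598940-77598961 for miR-99a-5p, chr16:77599672-77599693 for let-7c-5p, chr16:77646279-77646300 for miR-125b-5p and chr16:84714143-84714165 for miR-155-5p. The 11 mature microRNAs of 7 microRNA genes in the segment carried 11 different seeds. In the whole RefSeq table the let-7c seed was shared by 11 mature microRNAs, that of miR-125b-5p by 5 and that of miR-99a-5p by 3.

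A single change of level, placed where the absolute deviations from the medians on its sides were smallest, fell at 59.5634 Mb, inside the gene body of Crybg3. Before it, 198 tested peaks had a median log2 fold change of 0.62 and 162 of them were above 0. After it, 93 tested peaks had a median of -1.36 and 0 were above 0. The peaks that flank this position are 5.086 kb apart, with 0.80 ± 0.47 (SE) at 59559600 to 59560430 and -0.78 ± 0.33 (SE) at 59565516 to 59568216 in the authors' deposited table, and neither was called. The summed absolute deviation was 269.6 with no break, 131.3 with 1 and 101.6 with 3, and only a little less with 4 (99.7) or 5 (97.5). The number of 3 was chosen after the values were seen. With only the 56 peaks whose mean count was 50 or more, the single break fell at 57.57 Mb, between high-count peaks assigned to Filip1l and Cmss1. That fit could not have placed it in Crybg3. It required at least 20 peaks a side and left 20 after the break, while the low stretch described below held only 14 such peaks.

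With 3 breaks the sign did not change at one place. The profile first stepped up, then down to a level near 0 that lasted 2.50 Mb, and then down again to a level that lasted to the end. These levels are described below as the first stretch (55 Mb to 56.75 Mb), the Tmem45a stretch (to 57.09 Mb), the level stretch (to 59.59 Mb) and the low stretch (to 85 Mb). Their medians over tested peaks were 0.65, 1.39, -0.04 and -1.38. On a linear scale the first is 1.57-fold more signal in the resistant group, that of the Tmem45a stretch 2.61-fold more and that of the low stretch 2.61-fold less. The level stretch lies between them, close to the median of all tested peaks. Running medians, which do not assume steps, crossed 0 downward at 57.45 Mb over 41 peaks. Over 21 peaks they crossed it 5 times between 57.41 Mb and 59.50 Mb.

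**Figure D1:**
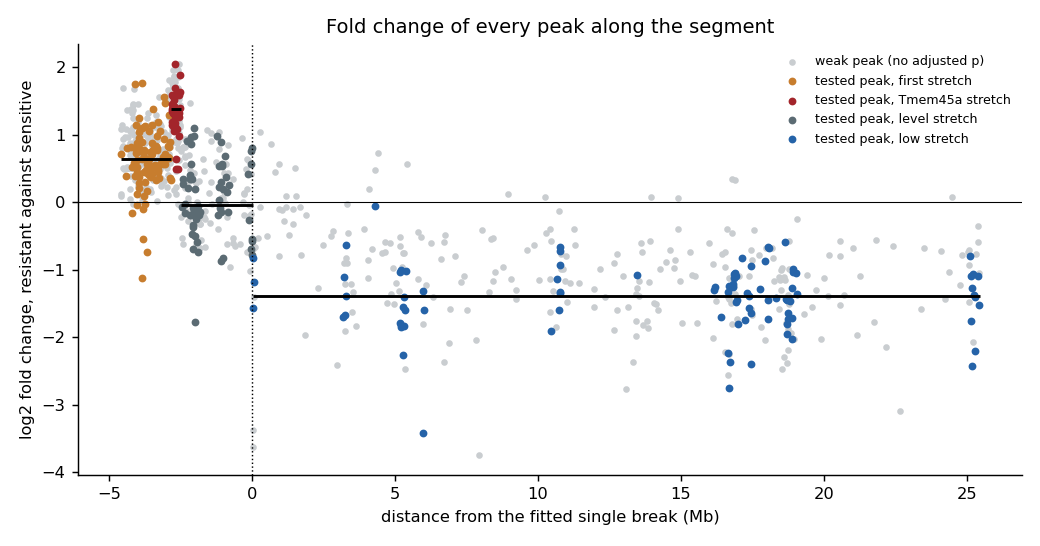
The log2 fold change (resistant against sensitive) of each of the 826 peaks is drawn against distance in Mb from the fitted single break, with weak peaks in grey, tested peaks coloured by stretch and black bars at the medians of tested peaks. The medians stand at 0.65, 1.39, -0.04 and -1.38 from left to right, and no tested peak to the right of the dotted line is above 0.

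The first step, upward, lay between the tested peaks at 56729950 to 56731460 and 56761680 to 56763550, 30.2 kb apart, between the genes Tfg and Adgrg7. The second, downward, lay in a gap of 54.7 kb between an intron of Tmem45a2 (57063400 to 57065130, 1.63 ± 0.42 (SE), called higher) and the promoter of Tomm70a (57119840 to 57123040, -0.07 ± 0.25 (SE), not called) in the authors' deposited table. Tomm70a encodes an import receptor of the mitochondrial outer membrane. The last step lay in a gap of 10.0 kb inside Crybg3, a gene for a protein with crystallin-like domains, before its promoter peak at 59597136 to 59605386, which was at -1.56 ± 0.23 (SE) and called lower in the authors' deposited table. Weak peaks, which took no part in placing these steps, gave breaks at 56.75 Mb and 57.07 Mb for the first and second. For that last step they gave 61.25 Mb, in a gap of 30.7 kb, which is further along the chromosome than the tested peaks put it.

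Most of the weak peaks in between are assigned to Epha6, an ephrin receptor gene, and no fit without them was run. From the Crybg3 promoter to that of Arl6, a small GTPase of the primary cilium, 3 tested peaks were at -1.56, -0.83 and -1.19 and 3 weak peaks at -3.38, -3.63 and -1.40 in the authors' deposited table. From there to 61.25 Mb there were 20 weak peaks and 0 tested ones, and the median of the weak peaks was -0.09 with 7 above 0. Beyond 61.25 Mb and up to 65 Mb, 43 weak peaks had a median of -0.83 and 17 tested peaks one of -1.55. So in the tested peaks the low level begins at the Crybg3 promoter, with 3 peaks up to the Arl6 promoter and then none for 3.11 Mb. The weak peaks between the Arl6 promoter and 61.25 Mb lie about 0. The standard error of a single weak peak there had a median of 0.64, and no peak in that interval was tested.

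**Figure D2:**
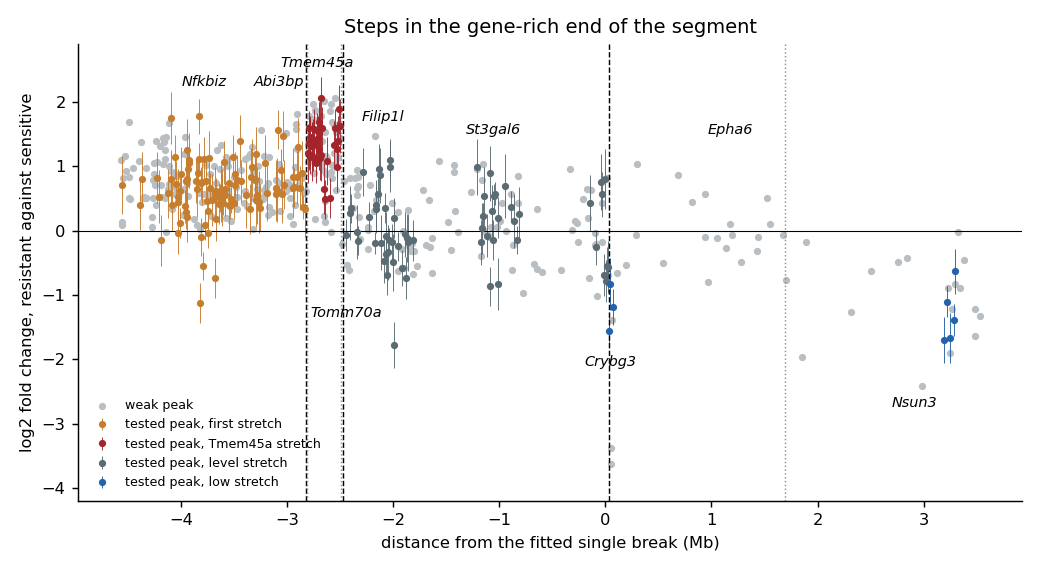
The gene-rich end of the segment is drawn as log2 fold change against distance in Mb from the single break, with bars of 1 SE on tested peaks, dashed lines at the 3 steps of the tested peaks and dotted lines at those of the weak peaks (grey). The first and second steps nearly coincide in both sets, whereas the last lies at 59.59 Mb for tested and 61.25 Mb for weak peaks, with Epha6 between.

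The breaks were placed to bring peaks close to the medians of the stretches, so the closeness and the calls given here describe the stretches and support nothing about them. The deposited value was within 1.96 standard errors of the stretch's median at 88 of 101 tested peaks of the first stretch (87.1%), 35 of 38 of the Tmem45a stretch (92.1%), 44 of 62 of the level stretch (71.0%) and 76 of 90 of the low stretch (84.4%). Calls numbered 21 higher and 1 lower in the first stretch, 33 higher and 0 lower in the Tmem45a stretch, 3 and 2 in the level stretch and 0 and 73 in the low stretch. None of these counts is independent of where the breaks lie. Weak peaks had medians of 0.68, 1.19, 0.06 and -1.08 in the same order. In the low stretch 90 of 347 peaks were tested, and 18 of the 257 weak ones were above 0.

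Promoters and other elements were also set side by side within each stretch, as a description with no test. Medians of tested promoter peaks were 0.53, 1.33, 0.04 and -1.40 in the first, Tmem45a, level and low stretches (16, 7, 17 and 32 peaks). Tested peaks of any other class had medians of 0.67, 1.39, -0.05 and -1.37 (85, 31, 45 and 58 peaks). Both classes give the same order of the stretches. In the low stretch the 24 intergenic peaks, which lie 3.425 to 235.39 kb from the start of the gene they are assigned to, had a median of -1.38. At mean counts of 50 and more, where errors are smaller, the medians were 0.46 (23 peaks), 1.42 (5), 0.22 (14) and -1.51 (14). Over all 21781 tested peaks of the whole table with such counts the median was -0.22, so the level stretch stood above it.

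**Figure D3:**
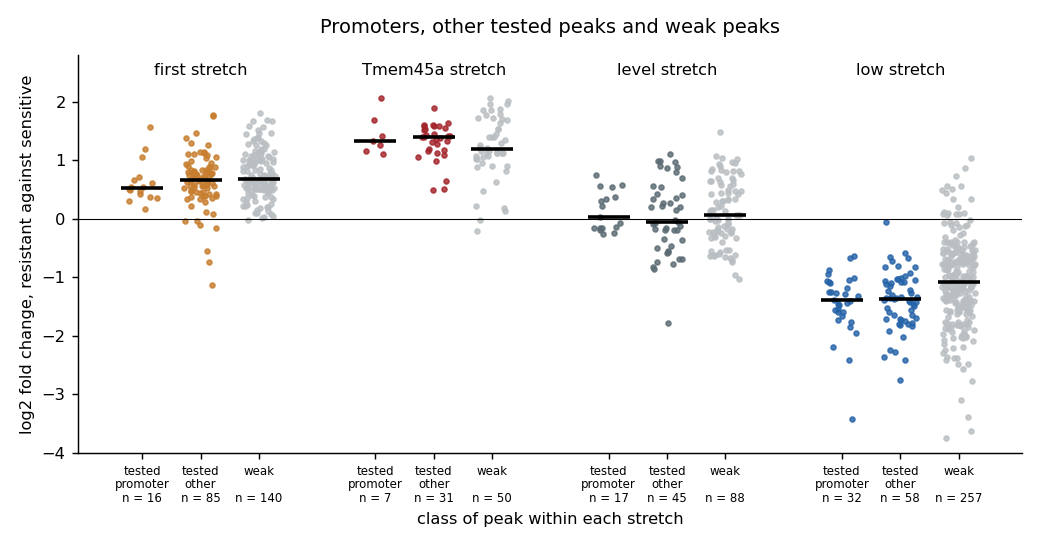
Each point is the log2 fold change of a peak, split by stretch and by class (tested promoter, other tested peak, weak peak), with black bars at the medians and the number of peaks under each column. Medians of promoters and of other tested peaks lie side by side in every stretch, at 0.53 and 0.67, 1.33 and 1.39, 0.04 and -0.05, and -1.40 and -1.37.

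Tmem45a, a gene for a multipass membrane protein, had 18 tested peaks in the authors' deposited table and all 18 were called higher, with log2 fold changes of 1.05 to 2.06. The largest was at its promoter (56885530 to 56887550, 2.06 ± 0.32 (SE), 4.16-fold), and the best covered was an intronic peak (56848470 to 56855040) at 1.54 ± 0.20 (SE) with a mean count of 102 in the authors' deposited table. Adgrg7, an adhesion G protein-coupled receptor gene, had 8 of 9 tested peaks called higher (1.15 to 1.59) in the authors' deposited table. Tmem45a2, the neighbouring paralog of Tmem45a, had 6 of 7 (0.98 to 1.89) there. How reads that fit both paralogs were handled is not given in the sources used here. Between them, Lnp1 stood lower than its neighbours, with 1 of 4 tested peaks called (0.49 to 1.08) and weak peaks at a median of 1.02 in the authors' deposited table. The promoters of Adgrg7 and Tmem45a lay in tested peaks, and that of Lnp1 in no peak.

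The first stretch holds Nfkbiz, Senp7, Impg2, Abi3bp and Tfg, and its level was positive at 94 of 101 tested peaks. Nfkbiz encodes a nuclear member of the IkB family that is induced by inflammatory signals and modulates NF-kB targets. By the authors' deposited table, 6 of its 19 tested peaks were called higher and 1 lower, the widest spread of any gene in this stretch. At 90.0 kb from its start a peak (55729950 to 55732120) was at 1.78 ± 0.28 (SE), and the next tested peak but one (55740830 to 55742790) was at -1.12 ± 0.31 (SE) and called lower in the authors' deposited table. The main promoter peak (55818740 to 55824900), with a mean count of 162, was at 0.31 ± 0.20 (SE) and not called in the authors' deposited table. A second promoter peak (55837410 to 55840070), with a mean count of 66.6, was at 0.66 ± 0.23 (SE) and called higher there. Distal peaks assigned to Nfkbiz were thus called in both directions.

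Abi3bp, which encodes a secreted extracellular matrix protein, had 3 of 9 tested peaks called higher in the authors' deposited table, and its promoter (56477160 to 56479670) reached 1.57 ± 0.30 (SE). Senp7, a protease that removes SUMO chains, had 3 of 8 called higher, with its promoter at 0.71 ± 0.23 (SE) and an exonic peak at 1.14 ± 0.34 (SE) by the authors' deposited table. The ribosomal protein gene Rpl24 had 2 tested promoter peaks, the better covered one at 0.43 ± 0.18 (SE) and not called and a smaller one (55970020 to 55972100) at 1.06 ± 0.33 (SE) and called higher in the authors' deposited table. Promoters that were not called include 0.49 ± 0.22 (SE) for the mitochondrial RNase P subunit gene Trmt10c and 0.38 ± 0.21 (SE) for Pcnp in the authors' deposited table. The zinc finger gene Zbtb11 was at 0.55 ± 0.19 (SE) and called higher in the authors' deposited table. Impg2 and Tfg each had 1 called peak, of 11 and 9 tested, that of Impg2 being a promoter peak at 1.19 ± 0.43 (SE), and 21 tested peaks assigned to Mir5118 included 4 called higher, up to 1.75 in the authors' deposited table. Another promoter peak of Impg2 (56265540 to 56267570), of like mean count, was at 0.48 ± 0.41 (SE) and not called there. Every one of the 16 tested promoter peaks of the first stretch was above 0.

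In the level stretch some peaks of one gene lay further apart than their standard errors. Filip1l, whose protein is related to filamin A-interacting protein, had 21 tested peaks in the authors' deposited table, with 1 called higher, an intronic peak at 57535853 to 57537653 (1.10 ± 0.32 (SE)), and 1 called lower, in the 5′ UTR at 57568300 to 57570436 (-1.78 ± 0.36 (SE)). Its best covered peak, in an intron at 57390470 to 57393210 with a mean count of 187, was at -0.19 ± 0.17 (SE) by the authors' deposited table, and its promoter was at -0.18 ± 0.28 (SE). St3gal6, a sialyltransferase gene, had 2 promoter peaks called higher (0.57 ± 0.18 (SE) and 0.54 ± 0.19 (SE)) and an exonic peak called lower (-0.87 ± 0.30 (SE)) in the authors' deposited table. These 5 calls were all that the level stretch held. Promoters of Nit2, an amidase, of Cpox, an enzyme of haem synthesis, and of Dcbld2, a membrane receptor, were at 0.35 ± 0.23 (SE), 0.37 ± 0.25 (SE) and 0.22 ± 0.21 (SE) by the authors' deposited table and not called. Col8a1, which encodes a short-chain collagen, had 4 tested peaks, 0 called, and a promoter at -0.15 ± 0.32 (SE) by the authors' deposited table. Cldnd1, a claudin-like membrane protein gene, was at -0.15 ± 0.22 (SE) there.

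Around the single break the 10 nearest tested peaks belong to Riox2, a histidine hydroxylase gene, and Crybg3. The promoter of Riox2 was at -0.26 ± 0.27 (SE) by the authors' deposited table, and 2 peaks annotated as promoters of Crybg3 at 59521700 and 59528623 were at 0.75 ± 0.43 (SE) and 0.57 ± 0.35 (SE). Inside the gene values varied in sign, with -0.69 ± 0.33 (SE), 0.80 ± 0.47 (SE), -0.78 ± 0.33 (SE), -0.55 ± 0.29 (SE) and -0.57 ± 0.41 (SE) by the authors' deposited table, none of them called. Only the promoter at the gene's upstream end, -1.56 ± 0.23 (SE) with a mean count of 85.1 in the authors' deposited table, was called, and the peak behind it was at -0.83 ± 0.41 (SE). Crybg3 is thus the gene in which the tested profile goes from values on both sides of 0 to values below it.

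Across the low stretch tested peaks were few and uniformly negative. There were 3.54 tested peaks per Mb, against 57.8 in the first stretch, 110 in the Tmem45a stretch and 24.8 in the level stretch. Protein-coding starts in the RefSeq promoter table, which does not cover every gene here, were also sparse, at 1.26 per Mb against 6.30, 8.67 and 14.8. The widest gap without a tested peak ran from 78621310 to 84680130 (6.06 Mb), and the 33 weak peaks in it had a median of -1.09. Another of 4.44 Mb held 34 weak peaks with a median of -1.11. The highest tested peak of the stretch, in an intron of Epha3, was at -0.06 ± 0.38 (SE) by the authors' deposited table and not called, and its weak peaks had a median of -0.65. Medians over 5 Mb windows stayed between -1.60 and -1.14 from 60 Mb to 85 Mb (3 to 47 tested peaks each).

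**Figure D4:**
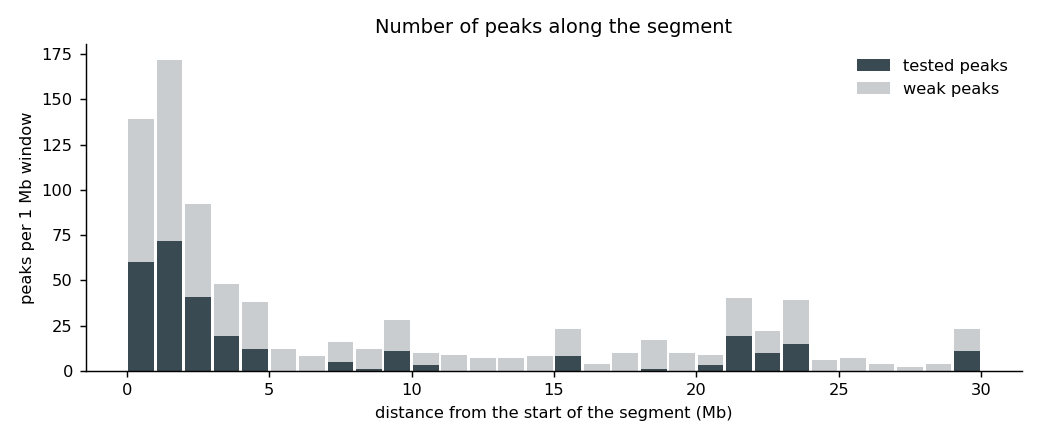
Bars give the number of tested (dark) and weak (grey) peaks in each 1 Mb window against distance in Mb from the start of the segment. Windows 0 to 5 Mb from the start hold 38 to 172 peaks each, later ones 2 to 40, and several later windows hold no tested peak.

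Nrip1, a corepressor of nuclear receptors, had 6 tested peaks and all were called lower in the authors' deposited table. Its promoter (76369800 to 76375700) was at -1.26 ± 0.23 (SE) and the intronic peak beside it at -1.21 ± 0.29 (SE), both near the level of the stretch, in the authors' deposited table. A set of 3 intergenic peaks 56.2 to 95.9 kb from the start were lower still, at -2.76 ± 0.35 (SE), -2.24 ± 0.25 (SE) and -2.37 ± 0.41 (SE), and the other at -1.24 ± 0.36 (SE), in the authors' deposited table. Btg3, an antiproliferative gene, had 4 of 4 tested peaks called lower in the authors' deposited table, from -1.27 to -2.02, with its promoter at -1.47 ± 0.27 (SE). Chmp2b, an ESCRT-III subunit of endosomal sorting, had 3 of 3, and a small peak 1.75 kb inside the gene (65559336 to 65560770) was at -3.42 ± 0.57 (SE) by the authors' deposited table. That is the lowest log2 fold change among all tested peaks of the table, and its mean count of 18.2 is not far above the smallest of any tested peak, 14.7. The peak at the start of Chmp2b was at -1.31 ± 0.32 (SE) there.

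Promoters of 5 metabolic and mitochondrial genes in the low stretch were called lower, as were 28 of all 32 tested promoter peaks there. In the whole deposited set of peaks, 10.2% of the 28815 tested promoter peaks were called lower and 3.80% higher. The stretch was drawn on the same fold changes, so nothing is read from that difference. Gbe1, the glycogen branching enzyme, was at -1.59 ± 0.27 (SE), the heat shock family gene Hspa13 at -1.26 ± 0.24 (SE), the mitochondrial ribosome gene Mrpl39 at -1.27 ± 0.28 (SE) and the mitochondrial tRNA methyltransferase Nsun3 at -1.10 ± 0.24 (SE) by the authors' deposited table. The ATP synthase subunit gene Atp5j was at -1.40 ± 0.23 (SE) there, in a peak (84833770 to 84837040) that also covers the start of Gabpa, an ETS factor gene, so the signal of these genes cannot be told apart. Genes of the same list outside the low stretch were near 0 or above it, and over the 12 genes measured 5 were called lower, 1 higher (St3gal6), with a median of 0.14. Of 8 signalling genes, 5 were called lower, among them the deubiquitinase gene Usp25 (-2.40 ± 0.44 (SE), with a second promoter peak of like mean count at -0.94 ± 0.41 (SE) that was not called), Btg3 and the ciliary GTPase gene Arl13b (-1.39 ± 0.25 (SE)) in the authors' deposited table. Only Senp7 was called higher, and the median was -1.29.

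Among adhesion receptors 2 of 3 tested representatives, of 6 genes with a peak, were called lower. They are Cxadr, a tight junction component known as the coxsackievirus and adenovirus receptor (-1.73 ± 0.23 (SE); 78301590 to 78308850), and the junctional molecule gene Jam2 (-1.06 ± 0.34 (SE)) in the authors' deposited table. The neuronal genes Cadm2 and Ncam2 had only weak peaks, 14 and 7, with medians of -1.11 and -1.77. Axon guidance receptors had almost no tested signal. Robo1, Robo2, Epha3 and Epha6 had 0 tested peaks as representatives and 2 tested peaks in all, neither called. Weak-peak medians were -1.47 for Robo1, -0.94 for Robo2, -0.65 for Epha3 and -0.10 for Epha6. Of these genes Epha6 lies nearest to the level stretch. Of 9 genes with a peak on the list of transcription factors and cofactors, 6 representatives were tested, 4 called lower and 1 higher. The lower ones were Nrip1, Zfp654 (-1.55 ± 0.26 (SE), in a peak that also covers the start of Cggbp1), Cggbp1 (-1.40 ± 0.34 (SE), intergenic) and Samsn1 (-1.71 ± 0.48 (SE), intronic) in the authors' deposited table. Samsn1 is also on the list of signalling adaptors and inhibitors, so its call stands in the counts of both lists and is no call of a transcription factor as such. Secreted and matrix genes had 1 called higher (Abi3bp) and 1 lower (App, -1.09 ± 0.39 (SE), in a peak downstream of the gene) of 6 tested in the authors' deposited table, with Pros1, the anticoagulant protein S, at -0.64 ± 0.36 (SE) and not called.

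Over the 7 lists, 39 of 51 genes with a peak had a tested representative, 19 were called lower and 4 higher, and the median was -0.67 beside -0.07 over all tested peaks of the table. Among all tested peaks, 7.34% were called lower and 5.02% higher, and among all tested promoter peaks 10.2% and 3.80%. Those shares also stand beside the counts of each list. Genes were listed for their role and mapped position, with earlier results known. The counts of the lists therefore show which genes the levels cover and nothing particular to a role. All 4 genes called higher lie before the low stretch, and all 19 called lower lie in it.

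**Figure D5:**
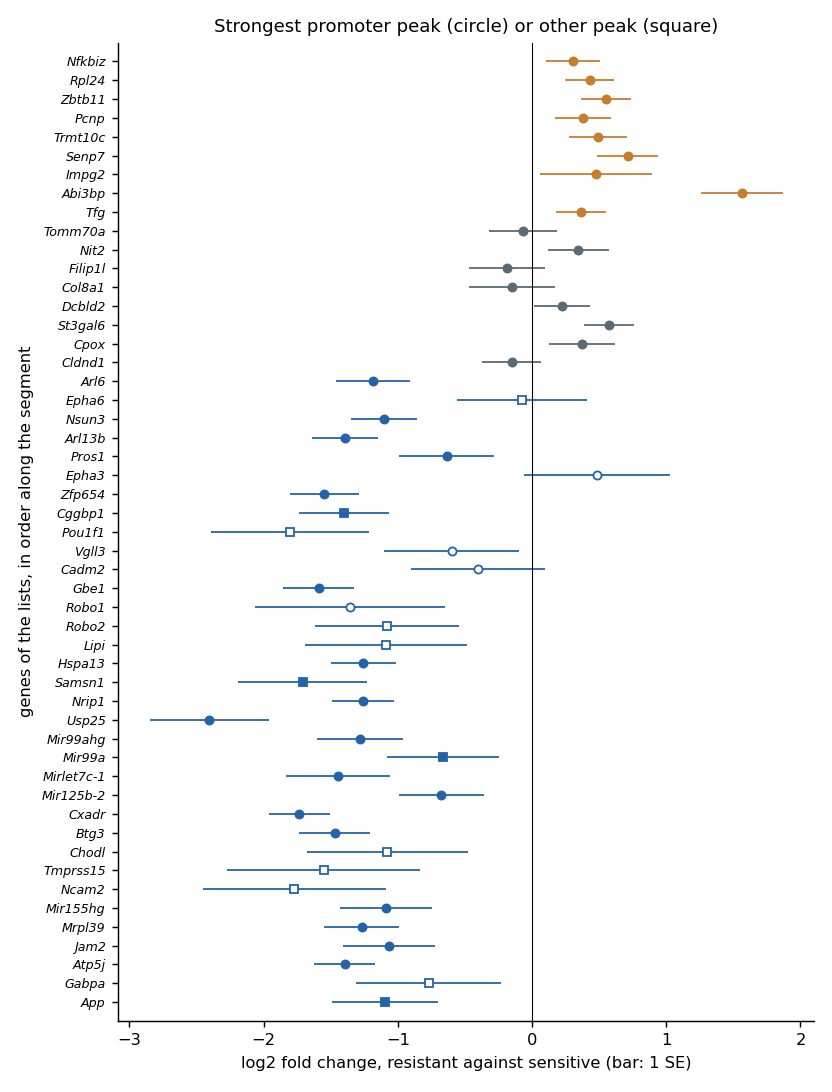
Listed genes with a peak are ordered along the segment from top to bottom, with the log2 fold change and 1 SE of the peak with the highest mean count at the promoter (circle) or, without one, elsewhere (square), filled where tested and coloured by stretch. Filled symbols are above 0 from Nfkbiz to Tfg, lie on both sides of 0 from Tomm70a to Cldnd1 and are below 0 from Arl6 to App.

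Peaks near the microRNAs printed above were lower or not called. The nearest tested peak to miR-99a-5p and let-7c-5p (77601580 to 77603350), 2619 and 1887 bp away, was at -1.44 ± 0.39 (SE) and called lower in the authors' deposited table. The tested peak assigned to Mir99a itself (77593580 to 77595630) was at -0.66 ± 0.42 (SE) and not called there. Near miR-125b-5p the closest tested peak, 929 bp away, was at -0.67 ± 0.32 (SE) and not called in the authors' deposited table. Mature microRNAs were not measured. The best covered promoter peak of Mir99ahg, the host transcript of this cluster, was at -1.28 ± 0.32 (SE) and called lower in the authors' deposited table. Another promoter peak of Mir99ahg (77499060 to 77501900) was at -0.87 ± 0.36 (SE) and not called there. For miR-155 the peak at the start of its host Mir155hg (84702300 to 84705060), 9083 bp before the mature sequence, was at -1.09 ± 0.34 (SE) and a second promoter peak (84698530 to 84701540) at -1.75 ± 0.36 (SE), both called lower, in the authors' deposited table. Among the 5 microRNA genes and hosts with a peak, 3 were called lower and 0 higher, with a median of -1.09.

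The RefSeq promoter table gave starts of 83 protein-coding genes in the segment. It gave none inside the tested promoter peaks of Nfkbiz, Abi3bp, Hspa13, Cxadr and Jam2, and these genes are not among the 83. The counts therefore do not cover every gene. Of the 83 genes, 38 had their start in a tested peak, 3 in a weak one (Cadm2, Epha3 and Vgll3) and 42 in none. The level stretch held 22 olfactory receptor genes, and none of their starts lay in a peak. The remaining 20 are Chodl, Csnka2ip, Epha6, Ftdc1, Ftdc2, Gabrr3, Gpr15, Htr1f, Impg2, Lnp1, Ncam2, Pou1f1, Rbm11, Robo1, Robo2, Samsn1, Speer2, Tmprss15, Usp25 and Zpld1. Over all starts of the segment in the RefSeq promoter table, the 250 bases upstream held a median of 14 CpG at the 57 starts in tested peaks. The median was 2 at the 100 in no peak and 6 over the whole promoter table. A GC box was found in 47.4% of the former, 6% of the latter and 32.7% of the table. CCAAT was found in 29.8%, 33% and 33.8%, TATAAA in 8.77%, 20% and 12.4%, and the AP-1 letters in 7.02%, 13% and 6.75%. By stretch the median CpG number at starts in tested peaks was 14, 5.5, 14 and 15.5, with 12, 2, 17 and 26 starts, so that of the level stretch equalled that of the first and differed little from that of the low stretch.

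At the limits of the window the signs were the same on both sides and the ranges overlapped. A difference in size was not tested. The 5 tested peaks just outside 55 Mb were at 0.07 to 1.42 and the 5 just inside at 0.39 to 0.82 in the authors' deposited table, with medians of 0.91 and 0.72. Just inside 85 Mb the 5 tested peaks were at -2.20 to -1.09 and just outside at -2.22 to -1.36, in the authors' deposited table, with medians of -1.40 and -2.16 and App on both sides of the limit. By 5 Mb windows of chromosome 16, the median was 1.33 between 50 and 55 Mb (398 tested peaks), above the 0.65 of the first stretch, and -1.31 between 85 and 90 Mb (44). These values are given only to place the limits, which are round positions and not features of the profile. All but 1 of 104 gene identifiers attached to the peaks lie on chromosome 16 in RefSeq. The exception is Fau, which RefSeq places on chromosome 19, and its 4 tested peaks, -1.12 to -1.05 in the authors' deposited table, count as positions only.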

How the data were processed

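ATAC-seq was done on 6 libraries, 3 sensitive and 3 resistant, grouped by their titles. Per the submitters' processing notes, which state no roles, the tools were R 3.6.1 with DESeq2 1.26.0 and ChIPseeker 1.22.1, as well as Bowtie2 2.2.1, featureCounts, deepTools, GATK 4.1.3 and SAMtools 1.8, and the build was mm10. Not given in the sources used here are the peak caller, duplicate removal and any Tn5 shift. The authors deposited, per the file headers, a mean normalized count per peak (a signal), the log2 fold change with its standard error, a Wald statistic (a score), p-values and adjusted p-values, and, in bp, the width of each peak and its distance to a start. The 6 columns per library carry names that match no sample label and were not used, so no value per library, no depth and no test of its own is given, and precision is that of the deposited standard errors. Weak peaks have no adjusted p and lie under one mean count, the pattern that DESeq2's filter on low counts leaves in a table such as the authors deposited.

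Members, lists, motifs and named genes were chosen with earlier results of these data known. Breaks minimise the sum of absolute deviations from stretch medians of log2 fold change along peak midpoints, with at least 20 peaks a side for 1 break and 10 a stretch for up to 5. Genes named are members of 7 lists of roles, by the promoter peak (within 3 kb of a start) with the highest mean count or, without one, the strongest other peak. Also named are the 8 called peaks with the largest change each way above the median mean count of 26.1, the 5 tested peaks on each side of the break, calls against their side and genes with 5 or more tested peaks (at most 12 by number). Lnp1, Fau, Chmp2b and the genes whose starts lie in no peak were chosen after their values were seen. Promoters and microRNAs came from RefSeq tables of GRCm38.p6. All 104 gene identifiers matched, but some genes, such as Abi3bp and Cxadr, had no start of the promoter table inside their promoter peak. The trend with mean count is a lowess fit (fraction 0.3, 3 iterations). The break search was tested on simulated data. The scripts ran in Python 3.11.15 with Matplotlib 3.10.9, statsmodels 0.14.6, pandas 2.3.3, SciPy 1.17.1 and NumPy 2.4.6.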

Additional observations from a re-analysis of the deposited data

How the results depend on the processing

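The single break lay at 59.5634 Mb and stayed there with both least-squares fits, without promoters, with peaks up to 5 kb wide, with the trend in mean count removed and without the Crybg3 and Arl6 promoter peaks and the peak between them (the last chosen after seeing the data). It moved to 59.5797 Mb with no filter on low counts and 59.5655 Mb with promoters only, both inside Crybg3. It moved to 57.5667 Mb at a mean count of at least 50, to 61.255 Mb with weak peaks only (chosen after seeing the data), and the last downward crossing of the running median lay at 59.4973 Mb over 21 and 57.4453 Mb over 41 peaks. At a mean count of at least 50, the rule of 20 peaks a side did not allow a break in Crybg3, because the low stretch held 14 such peaks. The cause of the other moves was not tested. Medians ranged from 0.44 to 0.70 before the break and from -1.40 to -1.11 after it over all 10 alternatives. Calls higher numbered 57, but 36 at an adjusted p under 0.01 and 15 at a mean count of at least 50, and calls lower numbered 76, but 14 at that mean count, where fewer peaks are tested. The share of higher among all calls, 42.9%, was 47.7% with the median of all tested peaks subtracted and 47.4% with the trend removed (both chosen after seeing the data, with a normal test on the deposited errors). That share was 37.1% at an adjusted p under 0.01 and 38.5% among calls of at least 2-fold. It was 42.6% with peaks up to 5 kb wide and 51.7% at a mean count of at least 50.

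No paired analysis was possible because the columns per library carry names that match no sample label, and for the same reason no replicate was left out. Fitted positions are limited by the spacing of peaks, which is widest in the low stretch. A weak peak of the segment had a median standard error of 0.63, so single weak values carry little information. Direction depends on the title of the table.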

Other observations

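Of the 291 tested peaks, 48 lay more than 1.96 standard errors from the median of their stretch, 20 above and 28 below it, chosen here by their values and described without a test. Filip1l held 7 of them (5 above, 2 below), Nfkbiz 6 (1 above, 5 below), St3gal6 5 (3 above, 2 below) and Nrip1 3 (all below). At Nfkbiz the peaks below the stretch's level include, besides the called one, an intergenic peak at 55768970 to 55773090 (-0.55 ± 0.22 (SE), mean count 80.6) in the authors' deposited table. At Nxpe3, between Nfkbiz and Rpl24, an exonic peak was at -0.74 ± 0.31 (SE) while the promoter was called higher at 0.61 ± 0.21 (SE) in the authors' deposited table. In the low stretch 9 peaks lay below its level, among them a promoter peak of the non-coding gene E330011O21Rik (78263140 to 78268970, -1.95 ± 0.22 (SE)), next to Cxadr, and a peak of Atp5j (84823870 to 84827560, -2.20 ± 0.32 (SE)) in the authors' deposited table. Another 5 lay above it, including 1 of the 7 tested peaks of Gbe1 (-0.72 ± 0.27 (SE), not called) and the peak of Epha3 in the authors' deposited table.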
